A study of Mus musculus with 4 samples.

Results

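The genes described here are 51 genes of DNA replication and of the step from G1 into S phase. They cover E2F transcription factors, cyclin E with its kinase, origin licensing, origin firing, polymerases and primase, the sliding clamp with its loader and partners, nucleotide supply, and the proteins that restore chromatin and DNA methylation behind the fork. The members were taken from a list of gene symbols, and the list was drawn up with earlier results of these data known. All 51 were found among the 39056 genes of the count table, all are annotated as protein coding, and all were among the 11803 genes that reached 1 CPM, the read count scaled to library size, in at least 1 library. Each member had between 109 and 12895 reads in every library.

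Polyadenylated RNA was sequenced from lung cells of S1PR1-GFP reporter mice, in which GFP marks cells that express the sphingosine-1-phosphate receptor S1PR1. The 4 libraries form 4 groups of 1 library each: 1 without LPS (lipopolysaccharide, the bacterial cell wall component that triggers innate immune signalling), and 1 each with LPS for 8, 16 or 20 h at 10 mg/kg by the intraperitoneal route. All 4 carry the reporter, and all are labelled as cells sorted for GFP and CD31, an endothelial surface protein, and against CD45, the common leukocyte protein. For strain, sex, age and the number of animals behind a library the sources used here give nothing, and the protocol lists challenge times that can be read as times since one injection or as times of injection.

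Totals ran from 27566454 to 28905776 reads, so depth differed by 1.05-fold at most. Levels are CPM on totals scaled with edgeR's TMM factors, and 3 reads, the upper limit that a count of 0 allows, correspond to between 0.104 and 0.108 CPM. With 1 library per group there is no replicate error, and no p-value can be given for a pair of libraries. Each fold carries an exact conditional binomial (Clopper-Pearson) 95% interval, which covers counting error only, as each group has 1 library. The labels name no molecular identifiers, so duplicate reads may be counted and the interval may be too narrow. A gene is called higher or lower where its fold was at least 2, its interval left out 1 and the higher library reached 1 CPM. Such calls compare libraries, not conditions.

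The defining endothelial genes went against the label of cells sorted for CD31, so each library is named here by its label alone. Pecam1, which encodes CD31, had 7, 2, 2 and 1 reads in the order no LPS, 8, 16 and 20 h. Cdh5 (VE-cadherin) had between 5 and 9 reads, Kdr (VEGF receptor 2) between 3 and 12, Ptprc (CD45) between 31 and 42 and Epcam (an epithelial adhesion protein) between 1 and 3. Of 15 endothelial markers 2 reached 1 CPM, Eng and Egfl7, and the list summed to between 58.5 and 62.7 CPM, of which Eng made up 53.6 to 57.2. Cldn5, Emcn, Erg and Sox17, also of this list, had 0 reads in all 4 libraries.

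DNA replication begins with licensing: in G1 the origin recognition complex, with Cdc6 and Cdt1, loads the MCM hexamer onto DNA, and geminin blocks Cdt1 once S phase has begun. The kinases CDK2 with cyclin E and Cdc7 with Dbf4 then fire the origins, Cdc45 and GINS join MCM to make the active helicase, and polymerases copy the strands around the clamp PCNA. E2F factors, released from RB proteins as cyclin-dependent kinases act in G1, bind the promoters of many of these genes, so that their mRNAs are characteristically abundant in dividing cells and scarce in resting ones. Endothelial cells of adult lung are mostly quiescent and can re-enter the cycle after injury.

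Promoter windows of 300 bases, from 250 before to 50 after the annotated start, were taken from RefSeq on build GRCm38.p6 (the assembly also called mm10). They were found for 43 of the 51 members, with 54 windows in all. Ccne2, Gmnn, Mcm4, Gins1, Gins2, Prim2, Pole and Rfc2 had no entry. Windows were searched on both strands for the E2F-type strings TTCCCGC, then TTCGCGC, then TTGCCGC and lastly TTGGCGC, and for the NF-Y-type string CCAAT. These can overlap one another, as TTGGCGC and the reverse strand of TTCGCGC do within TTGGCGCGAA, and TTGGCGC can also share letters with the reverse strand of CCAAT, which is ATTGG.

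An E2F-type string was present in 32 of the 54 windows (59.3%), beside 9.57% of all 32851 windows of the same length. The longer form, with a further T in front, was in 33.3% of the members' windows and in 2.26% of all windows. CCAAT was in 59.3% and 37.4% of windows. The members' windows were also richer in G and C, with a median of 61.3% against 52.7%, and the part of base composition in these shares was not tested. Of the 43 members with a window, 28 had an E2F-type string in at least 1 of them.

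Windows are printed below for Tk1, E2f2 and Rrm1, which passed the 2-fold rule in at least 1 comparison, and for Mcm6. Of the MCM genes, Mcm6 has the window with the densest run of strings. E2f8 and Rrm2 also passed the rule and are not printed, and each has 1 E2F-type match in its window. Capitals mark the strings named above, on either strand. Mcm6 lies on the minus strand and its window is chr1:128359656-128359955. The first annotated start of E2f2 gives chr4:136172024-136172323 on the plus strand. A second E2f2 window, chr4:136180532-136180831, is not printed and has 0 E2F-type matches and 3 copies of CCAAT. Rrm1 gives chr7:102441445-102441744 on the plus strand, and Tk1 gives chr11:117825965-117826264 on the minus strand.
Mcm6: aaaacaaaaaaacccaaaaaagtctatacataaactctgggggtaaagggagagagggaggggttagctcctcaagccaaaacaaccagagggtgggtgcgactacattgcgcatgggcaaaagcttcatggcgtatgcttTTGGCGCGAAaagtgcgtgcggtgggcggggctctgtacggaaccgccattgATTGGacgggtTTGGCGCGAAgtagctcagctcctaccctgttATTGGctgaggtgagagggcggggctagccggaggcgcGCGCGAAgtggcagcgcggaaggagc
E2f2: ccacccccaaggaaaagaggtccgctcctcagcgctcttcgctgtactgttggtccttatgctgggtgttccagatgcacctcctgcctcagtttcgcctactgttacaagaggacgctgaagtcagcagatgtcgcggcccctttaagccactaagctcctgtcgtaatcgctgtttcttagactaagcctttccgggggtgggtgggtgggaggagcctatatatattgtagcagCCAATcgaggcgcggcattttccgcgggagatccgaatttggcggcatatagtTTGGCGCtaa
Rrm1: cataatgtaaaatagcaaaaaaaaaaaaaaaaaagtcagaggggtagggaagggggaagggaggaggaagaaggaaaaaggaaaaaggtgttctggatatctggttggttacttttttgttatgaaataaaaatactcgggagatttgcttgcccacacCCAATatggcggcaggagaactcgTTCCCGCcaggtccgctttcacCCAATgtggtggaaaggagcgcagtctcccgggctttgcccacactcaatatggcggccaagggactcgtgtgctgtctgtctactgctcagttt
Tk1: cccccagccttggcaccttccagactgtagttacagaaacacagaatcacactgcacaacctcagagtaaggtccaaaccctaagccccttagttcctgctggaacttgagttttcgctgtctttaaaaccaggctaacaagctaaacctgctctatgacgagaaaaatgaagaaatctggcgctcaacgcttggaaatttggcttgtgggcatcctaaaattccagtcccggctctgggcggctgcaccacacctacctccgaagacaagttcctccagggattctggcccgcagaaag
The Mcm6 window holds 5 E2F-type matches, among them TTGGCGCGAA at 2 places, and 2 copies of ATTGG. The printed E2f2 window has 1 E2F-type match and 1 CCAAT, and that of Rrm1 has 1 and 2. None of these letters occurs in the Tk1 window, which says nothing about what binds there. A match is a description of letters and not of a bound site.

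Most of these genes were read at a higher level in the libraries labelled 8 h and 16 h than in those labelled no LPS and 20 h. Together the 51 genes took 0.465% of all reads without LPS, 0.637% and 0.635% at 8 and 16 h and 0.456% at 20 h. Their median level was 66.3, 89.6, 90.2 and 62.5 CPM in the same order. In 46 of the 51 members both the 8 h and the 16 h level lay above both other libraries, where 40.4% of all measured genes did the same. Both lay below the others in 2 members, E2f1 and E2f3, against 41.3% of all measured genes. In a bulk library a larger share of cycling cells and more RNA per cell cannot be told apart.

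Against no LPS, 4 members were called higher at 8 h and none lower, while 4.19% of measured genes were called higher and 4.13% lower. The 4 were Tk1, E2f2, Rrm2 and E2f8. This background is not matched to the members in level: with a minimum of 10 CPM, 207 measured genes were called higher instead of 494. How the members' count stands against genes of like level was not tested. The shift was broad: 16 members were higher by at least 1.5-fold and none lower (background 10.4% higher and 9.41% lower). The interval of the fold lay above 1 in 45 members, below 1 in 2 and held 1 in 4 (background 35.4% above and 34.8% below). The median log2 ratio, computed with a prior count of 2, was 0.42 for the members and 0.00 for all measured genes. Single folds ran from 0.808 for E2f1 to 4.62 for Tk1.

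**Figure D1:**
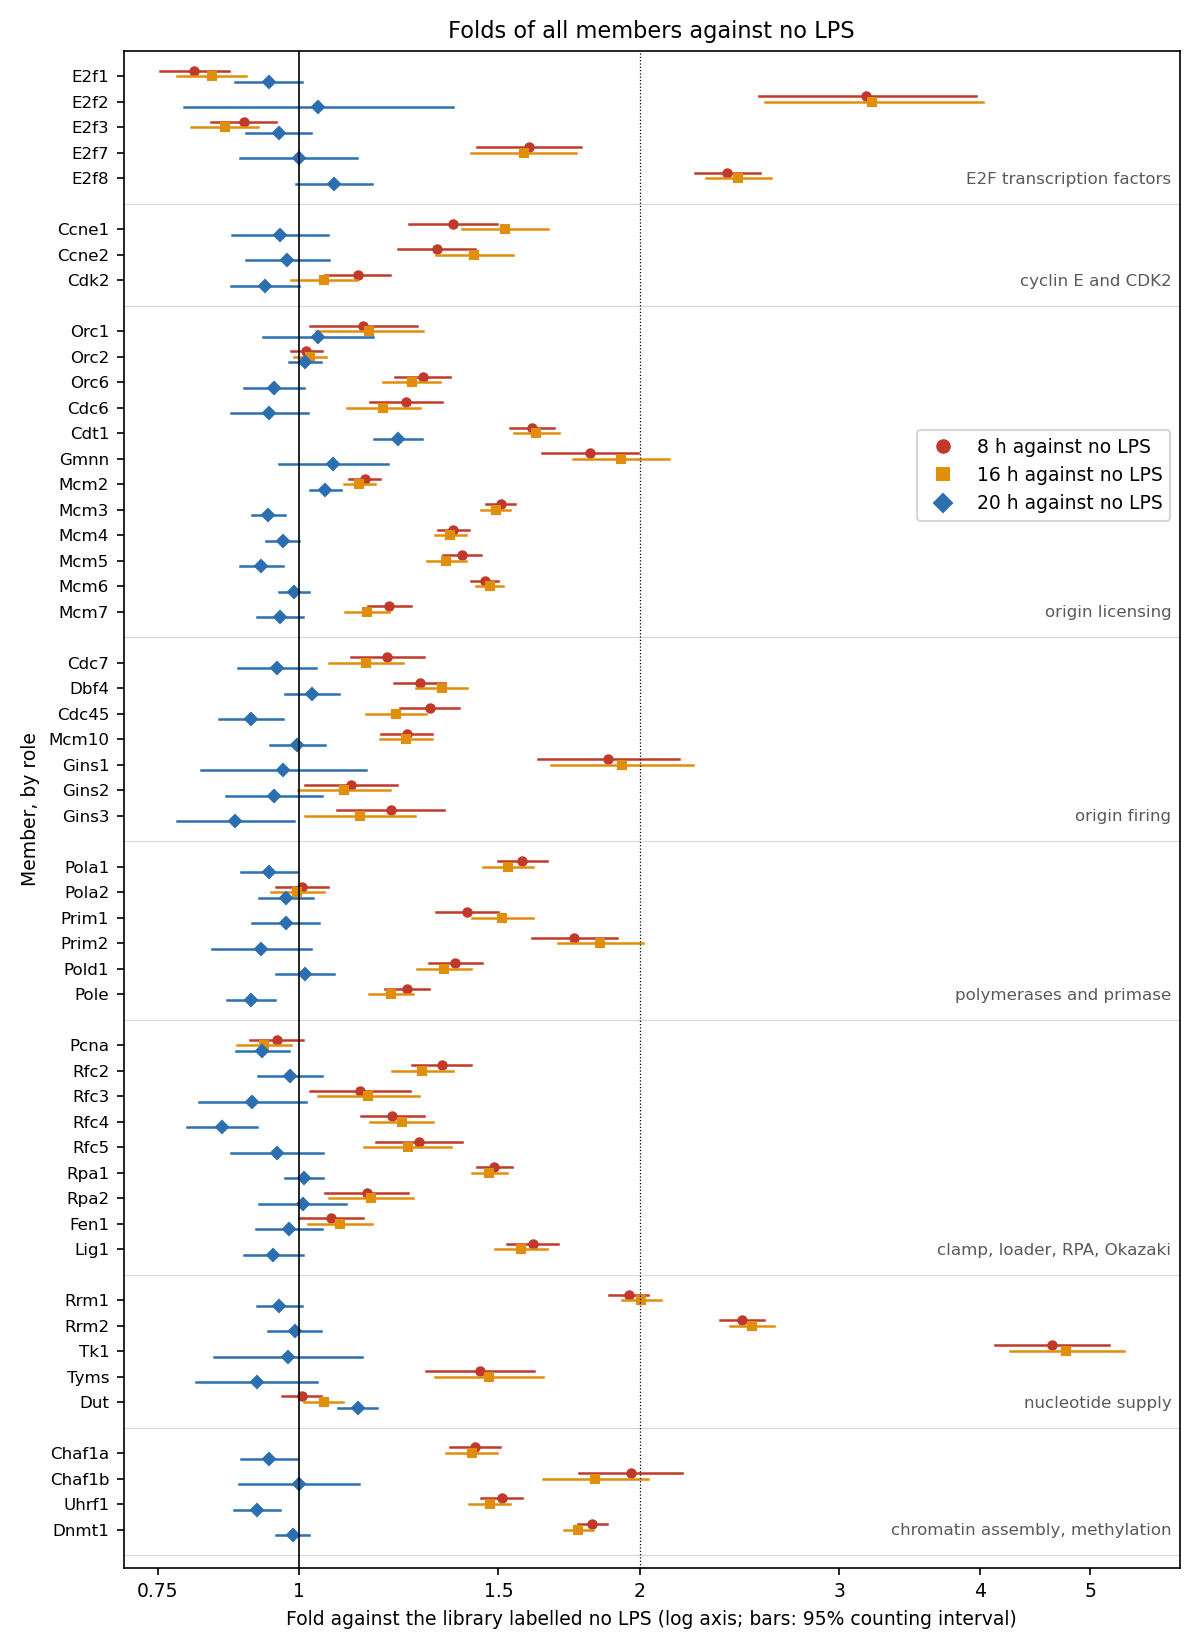
Fold of each of the 51 members against the library labelled no LPS on a log axis, by role, at 8 h (red circles), 16 h (orange squares) and 20 h (blue diamonds), with bars for the 95% counting interval, a solid line at 1 and a dotted line at 2. The red and orange points lie to the right of 1 for most members, up to 4.62 and 4.77 for Tk1, while the blue points lie close to 1.

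Among the E2F genes, the member most often described as an activator alongside E2F1 and E2F3, E2f2, stood apart from both. E2f2 (chr4:136172394-136196057, plus strand, in GENCODE M21 on mm10) stood at 3.86 CPM without LPS, 12.2 and 12.4 CPM at 8 and 16 h and 4.01 CPM at 20 h. It was 3.17-fold higher at 8 h than without LPS (95% interval 2.55 to 3.97). E2f8 (chr7:48866429-48881596, minus strand), an atypical E2F that represses transcription, stood at 45.0, 107, 110 and 48.3 CPM. Its fold at 8 h was 2.39 (2.24 to 2.55), and for both genes the 8 h and 16 h levels were far above the other 2 libraries.

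E2f7, the other atypical repressor, was 1.60-fold higher at 8 h (1.44 to 1.78). E2f1 went the other way, with 62.1 CPM without LPS, 50.2 and 51.9 CPM at 8 and 16 h and 58.4 CPM at 20 h. It was 1.24-fold lower at 8 h (1.15 to 1.33), and both middle libraries lay below the outer ones. E2f3, with 65.2, 58.2, 56.1 and 62.5 CPM, was 1.12-fold lower (1.05 to 1.2). Of the 5 E2F members, 2 were called higher at 8 h (background 4.19%), and the median log2 ratio was 0.67. Intervals lay above 1 in 3 and below 1 in 2 (background 35.4% and 34.8%).

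Cyclin E, whose binding to CDK2 drives entry into S phase, was moderately higher. Ccne1 stood at 30.1 CPM without LPS, 41.1 and 45.7 CPM at 8 and 16 h and 28.9 CPM at 20 h, a fold of 1.37 at 8 h (1.25 to 1.5). Ccne2 stood at 39.4, 52.1, 56.3 and 38.5 CPM, a fold of 1.32 (1.22 to 1.43). Cdk2, the kinase itself, had a fold of 1.13 (1.05 to 1.2). Neither cyclin E gene nor Cdk2 was called (background at 8 h 4.19% higher and 4.13% lower). Both cyclin genes were at their highest in the library labelled 16 h.

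None of the 12 licensing genes was called at 8 h (background 4.19% higher and 4.13% lower). The interval lay above 1 in 11 of them (background 35.4%), with a median log2 ratio of 0.41. The factor that loads MCM and its inhibitor were the highest of the group. Gmnn, encoding geminin, stood at 22.4 CPM without LPS, 40.4 and 43.1 CPM at 8 and 16 h and 24.0 CPM at 20 h, a fold of 1.81 at 8 h (1.64 to 1.99). Cdt1 stood at 109, 175, 177 and 133 CPM, a fold of 1.61 (1.54 to 1.68). Unlike geminin, Cdt1 was still 1.22-fold above no LPS at 20 h (1.17 to 1.28).

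The 6 subunits of the MCM hexamer were all higher at 8 h, by different amounts. Folds were 1.14 for Mcm2 (1.11 to 1.18), 1.2 for Mcm7, 1.37 for Mcm4, 1.39 for Mcm5, 1.46 for Mcm6 and 1.51 for Mcm3 (1.46 to 1.55). The intervals of Mcm2 and Mcm3 do not meet, so these subunits of one complex differed by more than the counting error that these intervals cover. Among the origin recognition genes, Orc6 had a fold of 1.29 and Orc1 of 1.14, while Orc2 stood at 260, 264, 266 and 263 CPM, with 1 inside its interval. Cdc6, which joins the origin complex to load MCM, had a fold of 1.24.

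Origin firing genes gave intervals above 1 at 8 h in 7 of 7 members (background 35.4%) and no call (background 4.19% higher and 4.13% lower). Gins1, a GINS subunit, stood at 10.4 CPM without LPS, 19.4 and 20.0 CPM at 8 and 16 h and 10.0 CPM at 20 h, a fold of 1.87 at 8 h (1.62 to 2.17). Its partners Gins2 and Gins3 had folds of 1.11 (1.01 to 1.22) and 1.2 (1.08 to 1.34), so the interval of Gins1 met neither. The fold of Gins2 is uncertain, because 67.3% of its exon bases are shared with the gene Gse1. Cdc45 stood at 68.7, 89.6, 83.6 and 62.3 CPM, a fold of 1.30 (1.23 to 1.38). The kinase Cdc7 and its activator Dbf4 had folds of 1.2 and 1.28, and Mcm10, which helps to start the helicase, 1.24.

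Within the complex of polymerase alpha and primase, which starts each new strand, the 4 subunits also differed. Prim2, the large primase subunit, stood at 28.6 CPM without LPS, 50.1 and 52.8 CPM at 8 and 16 h and 26.5 CPM at 20 h, a fold of 1.75 at 8 h (1.61 to 1.91). Pola1, the catalytic subunit, stood at 90.0, 142, 138 and 84.6 CPM, a fold of 1.57 (1.5 to 1.66). Prim1 had a fold of 1.41, while Pola2, the regulatory subunit, stood at 96.4, 96.9, 96.0 and 93.9 CPM and held 1 in its interval. The catalytic subunits of the lagging- and leading-strand polymerases, Pold1 and Pole, had folds of 1.37 and 1.25.

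Pcna, a standard proliferation marker at the protein level, was 1 of 4 members whose interval held 1 at 8 h, beside Orc2, Pola2 and Dut. Pcna stood at 97.2 CPM without LPS, 92.9 and 90.5 CPM at 8 and 16 h and 90.2 CPM at 20 h, with a fold of 0.955 at 8 h (0.906 to 1.01). Its value is uncertain because of a near-identical copy, described below. The DNA ligase that seals Okazaki fragments, Lig1, stood at 81.1, 130, 127 and 77 CPM, a fold of 1.61 (1.53 to 1.69). Rpa1, which coats single-stranded DNA, stood at 183, 272, 269 and 185 CPM, a fold of 1.49 (1.44 to 1.54). The clamp loader genes Rfc2 to Rfc5 had folds from 1.13 to 1.34, Rpa2 1.15 and the flap nuclease gene Fen1 1.07. None of these 9 genes was called (background at 8 h 4.19% higher and 4.13% lower).

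Nucleotide supply held the highest single fold of the 51 genes, that of Tk1, and also Dut, with one of the lowest. Tk1 (chr11:117815526-117826092, minus strand), the cytosolic thymidine kinase that salvages thymidine in S phase, stood at 12.6 CPM without LPS, 58.2 and 60.0 CPM at 8 and 16 h and 12.3 CPM at 20 h. It was 4.62-fold higher at 8 h (4.12 to 5.20). Rrm2 (chr12:24708241-24714146, plus strand), the S-phase subunit of ribonucleotide reductase, stood at 97.3, 240, 244 and 96.5 CPM, a fold of 2.46 (2.36 to 2.58). Rrm1 (chr7:102441695-102469771, plus strand), the large subunit, stood at 133, 259, 266 and 127 CPM, a fold of 1.96 at 8 h (1.88 to 2.03), just under the 2-fold rule. In all 3 genes the outer libraries were close together and the middle libraries lay well above them.

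The genes that make and protect thymidylate did less. Tyms, thymidylate synthase, had a fold of 1.44 (1.29 to 1.61). Dut, the enzyme that removes dUTP, stood at 171, 172, 180 and 192 CPM and was highest in the library labelled 20 h, where it was 1.13-fold above no LPS (1.08 to 1.17).

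**Figure D2:**
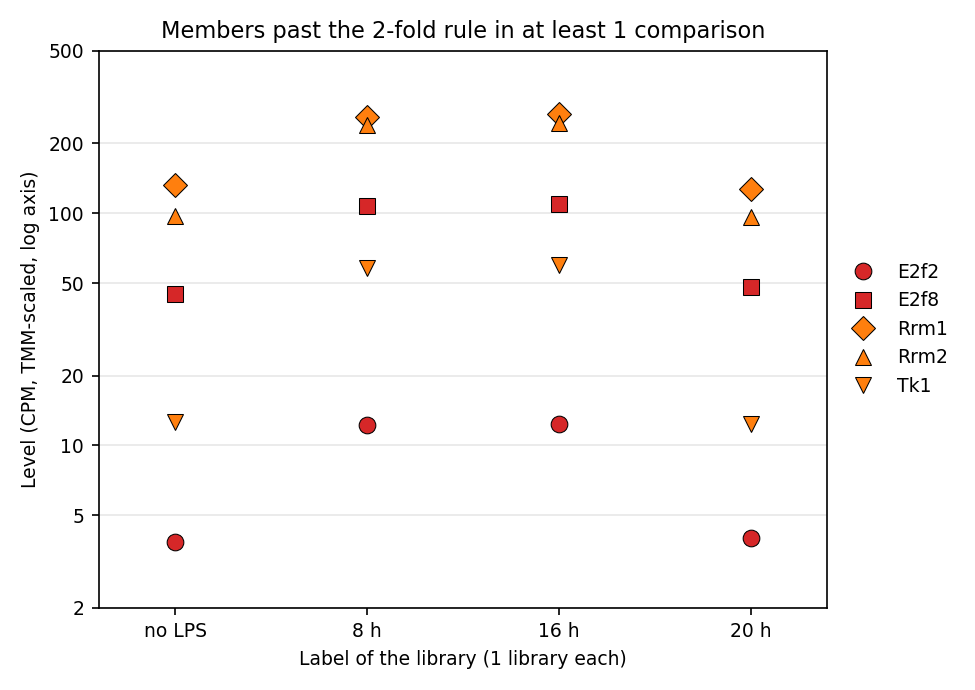
Level of the 5 members past the 2-fold rule in at least 1 comparison, in scaled CPM on a log axis, 1 point per gene and library. Each gene is higher at 8 h and 16 h than in the libraries labelled no LPS and 20 h, from E2f2 at 3.86 to 12.4 CPM up to Rrm1 at 127 to 266 CPM.

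All 4 genes of chromatin assembly and maintenance methylation had intervals above 1 at 8 h (background 35.4%), with a median log2 ratio of 0.73. None was called (background 4.19% higher and 4.13% lower). Chaf1b, a subunit of the histone chaperone CAF-1, stood at 19.1 CPM without LPS, 37.5 and 34.9 CPM at 8 and 16 h and 19.1 CPM at 20 h, a fold of 1.96 at 8 h (1.77 to 2.18). Dnmt1, which copies DNA methylation onto new strands, stood at 247, 449, 436 and 244 CPM, a fold of 1.82 (1.76 to 1.87). Uhrf1, which brings Dnmt1 to newly copied DNA, had a fold of 1.51, and Chaf1a 1.43. Chaf1b, Rrm1, Gins1, Dnmt1, Gmnn and Prim2 were thus the members nearest below the 2-fold rule.

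At 16 h the same picture was read against the same control library. Here 5 members were called higher and none lower (background 4.13% higher and 4.09% lower): Tk1, E2f2, Rrm2, E2f8 and Rrm1. The fold of Tk1 was 4.77 (4.25 to 5.36) and that of Rrm1 was 2.01 (1.93 to 2.09). Past 1.5-fold, 16 were higher and none lower (background 10.6% and 9.4%), and intervals lay above 1 in 44 and below 1 in 3 (background 35.8% and 35.1%). The members' median log2 ratio was 0.43 against 0.01 for all measured genes.

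The libraries labelled 8 h and 16 h differed little from each other. No member was called in either direction, with 0.161% of measured genes called higher and 0.0763% lower. Intervals lay above 1 for 4 members, Ccne1, Ccne2, Prim1 and Dut, and below 1 for 4, Cdk2, Mcm7, Cdc45 and Dnmt1, while 5.31% and 5.29% of measured genes did so. The highest of these folds was 1.11 for Ccne1 (1.03 to 1.2) and the median log2 ratio of the members was -0.01.

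The library labelled 20 h was close to the one labelled no LPS. No member was called (background 0.551% higher and 0.102% lower), and the members' median log2 ratio was -0.05, beside 0.00 for all measured genes. The interval held 1 in 38 members. It lay above 1 in 3, Cdt1, Dut and Mcm2, and below 1 in 10, of which Rfc4 was the lowest with a fold of 0.855 (0.797 to 0.917). Among measured genes 14.7% had intervals above 1 and 11.9% below.

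Between 16 h and 20 h the replication genes were lower again. No member was called higher and 5 were called lower (background 4.63% higher and 3.85% lower). At 20 h Tk1 was 4.87-fold lower (4.34 to 5.49), E2f2 3.09-fold (2.49 to 3.86), Rrm2 2.53-fold (2.42 to 2.65), E2f8 2.27-fold (2.13 to 2.43) and Rrm1 2.09-fold (2.01 to 2.17). Past 1.5-fold, 19 members were lower and none higher (background 10.2% lower and 10.6% higher). Intervals lay below 1 in 44 members and above 1 in 3, E2f1, E2f3 and Dut (background 34.7% and 36.6%), and the members' median log2 ratio was -0.42 against 0.01 for all measured genes.

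**Figure D3:**
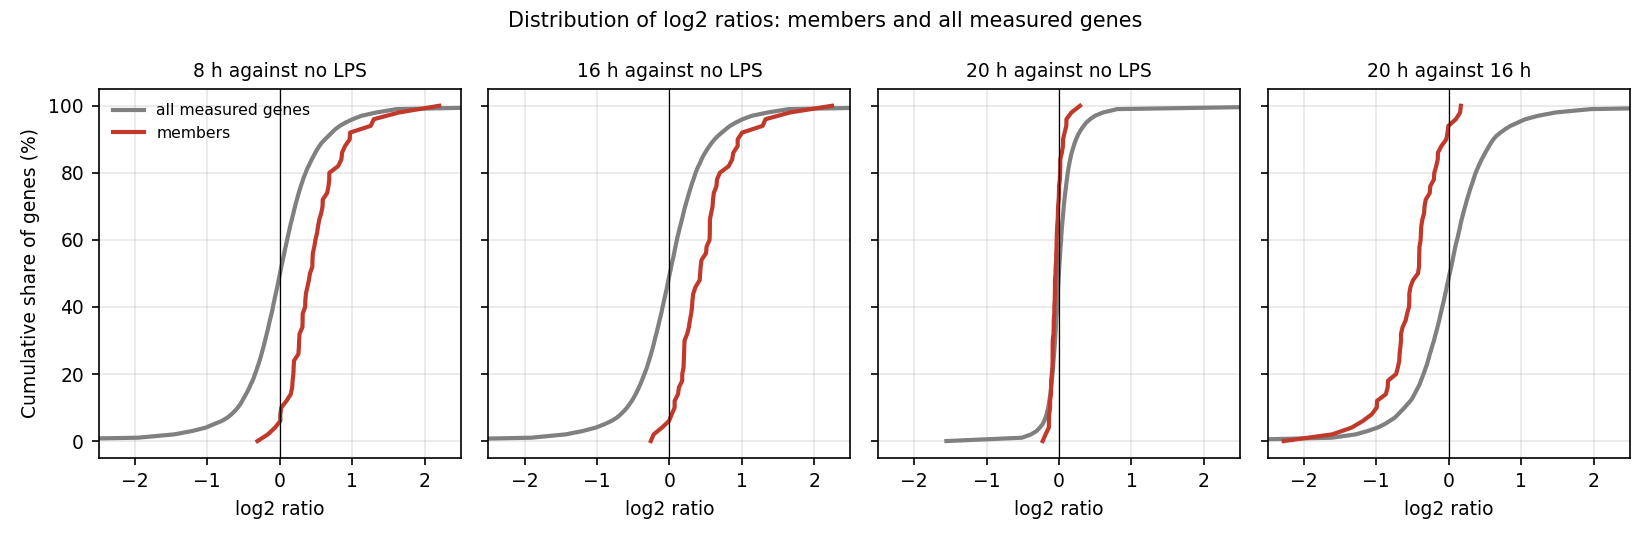
Cumulative share of genes (%) against the log2 ratio, for the 51 members (red) and all 11803 measured genes (grey), in 4 of the 5 comparisons. The members' curve lies to the right at 8 h and 16 h against no LPS (medians 0.42 and 0.43), near 0 at 20 h against no LPS, and to the left at 20 h against 16 h (median -0.42).

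The comparison of 8 h with no LPS and that of 20 h with 16 h share no library, so their lists can be set against each other. Of the 16 members higher by 1.5-fold at 8 h, 15 were among the 19 lower by 1.5-fold at 20 h, which is 93.8% of the first list and 78.9% of the second. Over all measured genes 945 were in both lists, 76.7% of the 1232 higher at 8 h and 78.6% of the 1203 lower at 20 h. The first share was higher for the members than for all measured genes and the second was close, and neither difference was tested. Past 2-fold, all 4 members called at 8 h were among the 5 called lower at 20 h (80% of the second list), and over all measured genes 343 were in both lists, 69.4% of 494 and 75.6% of 454.

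**Figure D4:**
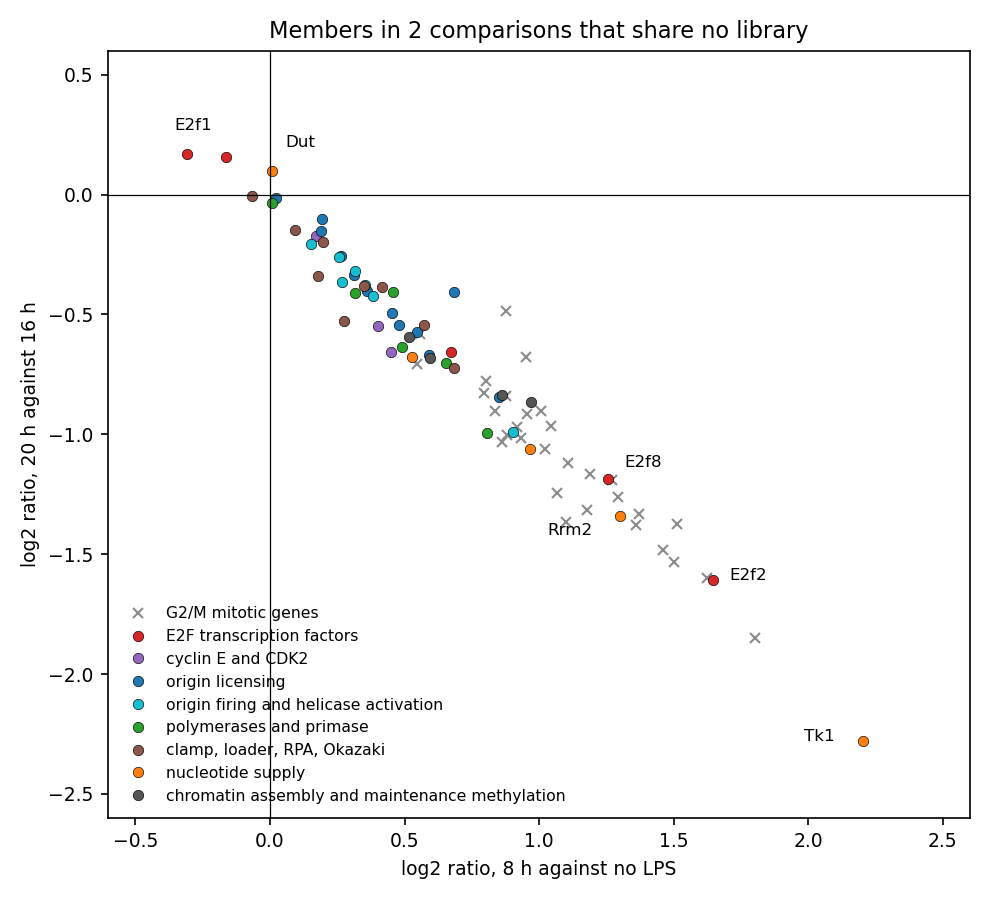
Log2 ratio at 20 h against 16 h (vertical) and at 8 h against no LPS (horizontal), 1 point per gene, with the members coloured by role and 30 G2/M mitotic genes as grey crosses. Tk1 lies at the lower right end of the members, E2f1 at the upper left, and most mitotic genes lie further out than most replication genes.

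A linear change over 0, 8, 16 and 20 h was tested across all measured genes with edgeR's quasi-likelihood test, which has 2 residual degrees of freedom here. A straight line cannot describe levels that are higher at 8 and 16 h than at both ends, so this test does not address that pattern. No member and no other gene passed an adjusted p of 0.05 (0% of measured genes). At an unadjusted p under 0.05 there was no member and 0.364% of measured genes, 43 in all, and DESeq2's Wald test gave 0 members at either threshold and 25 genes unadjusted. The member with the smallest p was Dut, with an unadjusted p of 0.247 and an adjusted p of 1 by edgeR.

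Genes of the same pathway outside the 51 were read from lists of their own. Of 41 further replication genes, all measured, 1 was called higher and none lower at 8 h (background 4.19% and 4.13%), with a median log2 ratio of 0.26. At 20 h against 16 h, 2 were called higher and none lower (background 4.63% and 3.85%), with a median of -0.29. The one called at 8 h was Dscc1, of the alternative clamp loader that aids cohesion, at 3.04 CPM without LPS, 6.20 and 7.36 CPM at 8 and 16 h and 4.55 CPM at 20 h. Pole2, a subunit of polymerase epsilon, had a fold of 1.91 (1.77 to 2.05) and Clspn, encoding the checkpoint mediator claspin, 1.88 (1.74 to 2.03). Pole4, a small histone-fold subunit of the same polymerase, went the other way, at 39.5, 20.9, 20.2 and 48.0 CPM, 1.89-fold lower at 8 h (1.71 to 2.09). Mcm9, picked out here after its value was seen, was 1.83-fold lower (1.60 to 2.09).

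None of 12 RB, DP, DREAM complex and remaining E2F genes was called at 8 h (background 4.19% higher and 4.13% lower). Their median log2 ratio was 0.13. Rb1 had a fold of 1.09 (1.01 to 1.18), E2f4 1.11 (1.07 to 1.14) and Tfdp1, the E2F dimer partner, 1.18 (1.13 to 1.24). Of 13 genes of the G1 kinases and their inhibitors, 10 were measured and 2 were called higher at 8 h (background 4.19%). These were Cdkn2d, encoding the CDK4/6 inhibitor p19, at 2.72, 10.6, 11.8 and 2.92 CPM with a fold of 3.87 (3.01 to 5.04), and Ccnd3, cyclin D3, at 28.2, 56.7, 58.6 and 31.6 CPM with a fold of 2.01 (1.85 to 2.19). Ccnd2, cyclin D2, was 1.62-fold lower (1.58 to 1.66).

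Genes of G2 and mitosis were further apart between the libraries than those of replication. Of 30 such genes, all measured, 17 were called higher at 8 h against no LPS and 18 lower at 20 h against 16 h (background 4.19% and 3.85%). Their median log2 ratios were 1.03 and -1.05. For the 51 replication genes these medians were 0.42 and -0.42. This is a description of 2 lists, with no test of their difference.

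Levels were also divided by the merged length of all annotated exons of each gene, in kilobases. This length can exceed that of 1 transcript by uneven amounts, so the order of genes is rough. For Chaf1b it was 4681 bases against 1922 in the longest coding transcript, and for E2f2 4882 against 4739. On this scale the mean level over the 4 libraries was highest for Mcm3 (85.3 CPM per kb), Mcm6 (79.5), Mcm4 (78.2), Dut (74.2), Orc2 (68.3) and Rrm2 (61.2). It was lowest for E2f2 (1.66), E2f7 (2.90), Tyms (3.90) and Chaf1b (5.91). The 28 members with an E2F-type string in a promoter window had a median log2 ratio of 0.50 at 8 h. Of these, 12 were higher by 1.5-fold, beside 10.4% of all measured genes. The 15 members with a window but no string had a median of 0.35, and the only one of them past 1.5-fold was Tk1. The lowest ratio of these 15 was that of E2f1, whose window lay wholly inside its GENCODE gene and so may miss its promoter. The split was not tested.

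Some members share sequence or exons with other genes, and their values are uncertain because the sources used here do not say how strand and reads with several matches were handled. Pcna matches the processed copy Pcna-ps2 at 99.2% identity over 781 bases. In addition to Pcna, the genes with a copy over at least 30% of their length at 95% identity or more, or with at least 10% of their exon bases shared with another gene, were Mcm7, Uhrf1, Rfc5, Cdc6, Fen1, Gins2, Chaf1a, Orc2, Ccne2, Rfc2, Rfc4, E2f8 and Orc1. Among the 37 members without either, 3 were called higher at 8 h (background 4.19% of all measured genes) and 14 were higher by 1.5-fold (background 10.4%). Their median log2 ratio was 0.48.

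Other measured features of the libraries moved with these genes. The lung epithelial marker list summed to 56.7 CPM without LPS, 127 and 131 CPM at 8 and 16 h and 56.5 CPM at 20 h; 3 of its 11 genes were measured, Krt8 and Krt18 made up most of the sum, Epcam had 1 to 3 reads, and the defining genes Nkx2-1 and Sftpb had 0 reads in all 4 libraries. The fibroblast and mesenchymal list, with 6 of 12 genes measured, summed to 2029, 1563, 1539 and 1966 CPM, with 0 reads of Tcf21 in all 4. Most of that sum was Fn1, at 1596, 1218, 1184 and 1535 CPM; at 8 h Col3a1 and Dcn were called lower and Twist2 had a fold of 1.89, and at 16 h 3 of the 6 lay above 1 and 3 below. The macrophage list, with 7 of 12 genes measured, summed to 149, 127, 121 and 150 CPM, mostly Cd68 at 99.7, 66.5, 62.0 and 96.6 CPM. Its genes did not follow the sum: 5 of the 7 had folds above 1 at 8 h, with a median log2 ratio of 0.35, and Adgre1 was called higher at 8 h and at 16 h, and Csf1r at 16 h. Mitochondrial transcripts took 1.80%, 1.36%, 1.40% and 1.90% of reads. The part of these differences in the values of the replication genes was not tested.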

How the data were processed

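The authors deposited raw counts per gene, whole numbers with 1 column for each library, and STAR, featureCounts and mm10 are named in the submitters' processing notes. How strand and reads with several matches were treated, and which annotation was used, is not stated there. Symbols, coordinates, exon lengths and GC content came from the GENCODE M21 annotation of that build by stable gene ID (38872 of 39056 IDs, 99.5%). The labels give 1 library per treatment, so the trend's p-values measure only the spread of single libraries around a line.

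Counts were scaled with TMM in edgeR 4.0.16 (R 4.3.3), and intervals were computed in scipy 1.17.1. The trend over hours used glmQLFit and glmQLFTest on the measured genes (1 CPM or more in any library) with Benjamini-Hochberg adjustment, and DESeq2 1.42.0 as an alternative. Scripts were run on simulated counts, with Poisson error for the pairs and, for the trend, straight slopes with a smaller dispersion than was fitted here. Those runs check the code and do not show how the rules perform on these data. Near-identical copies were searched among annotated transcripts.

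The members, the pathway and marker lists, the rules and the comparisons were chosen with earlier results of these data known. Levels in every library are given for called members and for the 2 members of each role with the largest absolute log2 ratio at 8 h. From other lists up to 4 genes with the largest such ratio were named, and any measured RB, DP and E2F gene could be. Levels of E2f1, E2f3, Orc2, Pola2, Pcna and Dut, and the names of Mcm9 and of the fibroblast and macrophage markers, were added after their values were seen. Alternatives were other scalings, prior counts, filters, fold and interval thresholds, a correction in 20 bins of GC content and the removal of members with copies or overlaps, the last 2 chosen after seeing the data.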

Additional observations from a re-analysis of the deposited data

How the results depend on the processing

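The number of members called depended on the fold threshold. At a fold of 1.5 it was 16 at 8 h against no LPS, 16 at 16 h against no LPS and 19 at 20 h against 16 h, and at a fold of 4 it was 1 in each of these, Tk1. Rrm1 at 16 h lost its call when libraries were scaled by totals, by DESeq2 size factors or by upper quartiles, which left 4. Between 16 h and 20 h, 7 members were called under the last 2 scalings and 6 after the GC correction. No member was called at 20 h against no LPS, at 16 h against 8 h or in the trend under any alternative run. The members' median log2 ratio moved by at most 0.085, to -0.51 at 20 h against 16 h after the GC correction, and the sign of no member's called ratio turned. Over all measured genes the calls at 8 h went from 981 to 2343 at a fold of 1.5, to 187 at a fold of 4 and to 332 with a minimum of 10 CPM, those at 16 h from 971 to 2356, 178 and 332, and those at 20 h against 16 h from 1000 to 2449, 184 and 357. In the same order they went from 77 to 236, 9 and 22 at 20 h against no LPS, and from 28 to 92, 2 and 0 at 16 h against 8 h. With no minimum CPM these 2 counts were 216 and 172, and that at 16 h against no LPS was 1484; with the stricter interval level the 2 counts were 40 and 4. Without the library labelled no LPS, 8 members and 596 of all 11803 measured genes had an unadjusted p under 0.05 in edgeR's trend test, and without that labelled 20 h 24 members and 2091 genes did; 1 residual degree of freedom is then left, and no member passed adjustment. Every member had at least 109 reads in every library, and read number still sets the width of the counting intervals. With 1 library per label the spread between animals is unknown. No paired analysis was possible because each label has 1 library and the labels carry no replicate numbers.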
